A study of Mus musculus with 24 samples.

Results

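The livers compared here came from 4 DKO mice, which lacked both Rab30 and Cpt2 in hepatocytes, and 4 Cpt2L-/- mice, which lacked Cpt2 alone. They were 8 of the 24 livers of the series and were chosen by their genotype labels. Every mouse was a male fasted for 24 h. Both groups carried the albumin-Cre transgene and deleted Cpt2, so that the comparison addressed the loss of Rab30 in livers that cannot oxidise long chain fatty acids in mitochondria. The mice were young adults of C57BL/6J background per the study's methods. The study used albumin-Cre to delete genes in hepatocytes. Each library is 1 whole liver sample of 1 animal, which also holds other cells of the liver. For Rab30 loss with Cpt2 intact, 4 Rab30L-/- livers were set beside 4 ff;ff livers, which carried floxed Rab30 and floxed Cpt2 without Cre. The labels name the ff;ff mice as littermates of the DKO mice, and name no littermates for the Cpt2L-/- and Rab30L-/- mice. Of 54532 genes in the count table, 13306 had enough reads for the test.

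Rab30 is a small GTPase of the Golgi apparatus, a membrane switch that recruits effectors to vesicles and tubules on the secretory and endocytic routes. Cpt2 is the inner mitochondrial membrane acyltransferase that turns acylcarnitines back into acyl-CoA for β-oxidation. A fasted liver without it cannot make ketone bodies from long chain fatty acids, accumulates triglyceride and runs a strong Pparα programme, in which Rab30 itself is a target gene. The fasted hepatocyte also exports triglyceride on VLDL and secretes most plasma proteins through the Golgi, which is why apolipoproteins, lysosome genes and plasma proteins are read here beside the oxidation genes.

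A gene was called when its Benjamini-Hochberg adjusted p in edgeR's quasi-likelihood test was below 0.05 and it changed at least 1.2-fold. Levels are CPM: counts set relative to library size, with TMM factors from the 16 liver-specific libraries, and not divided by transcript length. Log2 fold changes are DKO over Cpt2L-/- with the standard error (SE), and 8 further fits each left out 1 library. Beside a called gene, "held in 4 of 8" gives the number of these fits that still called it. Library totals were 13537598 to 20196355 counts in the DKO group and 13839554 to 14261738 in the Cpt2L-/- group, and every pair of replicates differed by more than counting noise.

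Reads over the whole Rab30 gene (chromosome 7 of GRCm38 from 92741603 to 92844535, plus strand) did not separate the groups. Rab30 was at 133, 102, 235 and 183 CPM in the DKO libraries and at 124, 131, 187 and 149.7 CPM in the Cpt2L-/- libraries. The ranges overlapped, and the difference was within its error (log2 fold change 0.15, SE 0.24, adjusted p = 0.763). With Cpt2 intact the mean was 17.2 ± 7.19 CPM (SD, n = 4) in Rab30L-/- livers and 37.3 ± 9.96 CPM in ff;ff livers, a difference that also missed the threshold (log2 fold change -1.10, SE 0.29, adjusted p = 0.174). Only exon 4 of Rab30 was floxed, so that a whole-gene count includes reads from outside the deleted part and does not check the label. Cpt2 (chromosome 4 of GRCm38 from 107903981 to 107923610, minus strand) was at 106 ± 10.1 CPM in the DKO group and 128 ± 28.8 CPM in the Cpt2L-/- group (log2 fold change -0.26, SE 0.15, adjusted p = 0.347), against 134 ± 6.35 CPM in ff;ff livers and 222 ± 42 CPM in Rab30L-/- livers. Every Rab30L-/- library lay above every DKO and every Cpt2L-/- library, while the ff;ff libraries overlapped the Cpt2L-/- libraries. Which exon of Cpt2 was deleted is not named in the sources used here. The genotypes below are therefore those of the labels. The study itself assayed Rab30 and Cpt2 mRNA by qRT-PCR and Rab30 protein by immunoblot in knockout and control livers, which these counts do not repeat.

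DKO and Cpt2L-/- livers differed in a limited set of genes. Of the 13306 genes, 360 were called (2.71%), with 183 higher (1.38%) and 177 lower (1.33%) in the livers labelled DKO. Of the called genes, 152 changed at least 2-fold, 296 were protein-coding and 41 were annotated pseudogenes, which made up 11.4% of the called genes and 4.0% of the tested genes. The median log2 fold change of all tested genes was 0.00, a value that TMM scaling sets close to 0. In 356 of the 360 called genes the 4 DKO values lay wholly on one side of the 4 Cpt2L-/- values, which held for 1752 of all 13306 genes (13.2%). On the first principal component of the 500 most variable genes, which carried 45.8% of their variance, the DKO libraries lay between 13.9 and 23.1 and the Cpt2L-/- libraries between -19.4 and -16.4. The second component (20.95% of the variance) set DKO libraries 1 and 2, at 14.6 and 12.2, apart from DKO libraries 3 and 4, at -14.5 and -17.5, while the Cpt2L-/- libraries ranged from -6.80 to 15.2. Many calls were close to the threshold. Of the 360, 54 held in all 8 leave-one-out fits and 23 in none of them. The number called ranged from 57 without Cpt2L-/- replicate 4 to 445 without DKO replicate 3. DESeq2 called 1032 genes (7.76%), among them 359 of the 360, and the fit over all 24 libraries called 95 of the 360.

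**Figure D1:**
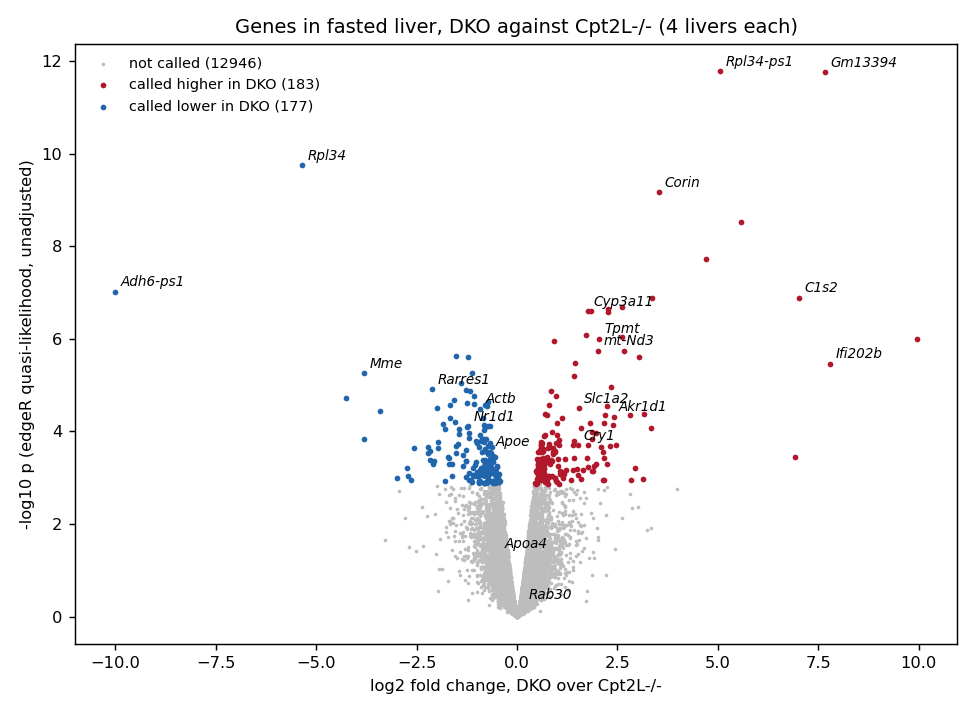
Log2 fold change of each of the 13306 tested genes, DKO over Cpt2L-/- (x axis), against the -log10 of its unadjusted p from edgeR's test (y axis). Red points are the 183 genes called higher in DKO livers and blue points the 177 called lower. Rpl34 and Adh6-ps1 stand far to the left, Gm13394, Rpl34-ps1 and C1s2 far to the right, and Rab30 and Apoa4 lie among the genes not called.

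The base composition of the transcripts moved with the comparison. Genes called higher in DKO livers had a median transcript GC of 44.9%, those called lower 54.9% and all tested genes 49.4%. In the third of genes with the lowest GC, 109 were called higher and 21 lower, whereas in the third with the highest GC 18 were called higher and 115 lower. The slope of log2 CPM on GC was -0.14 ± 0.07 per 10 points of GC (SD, n = 4) in DKO libraries and 0.09 ± 0.06 in Cpt2L-/- libraries, and the 2 groups did not overlap (exact two-sided permutation test over 70 splits, p = 0.0286, the smallest this design allows). When each library was offset by a smooth curve of its own counts on GC, a setting added after the data were seen, 170 genes were called (1.28%), 98 higher (0.737%) and 72 lower (0.541%), and 148 of them were among the 360. The other genes of the 360 were not called in that fit. A named gene that lost its call with this offset is marked as such.

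**Figure D2:**
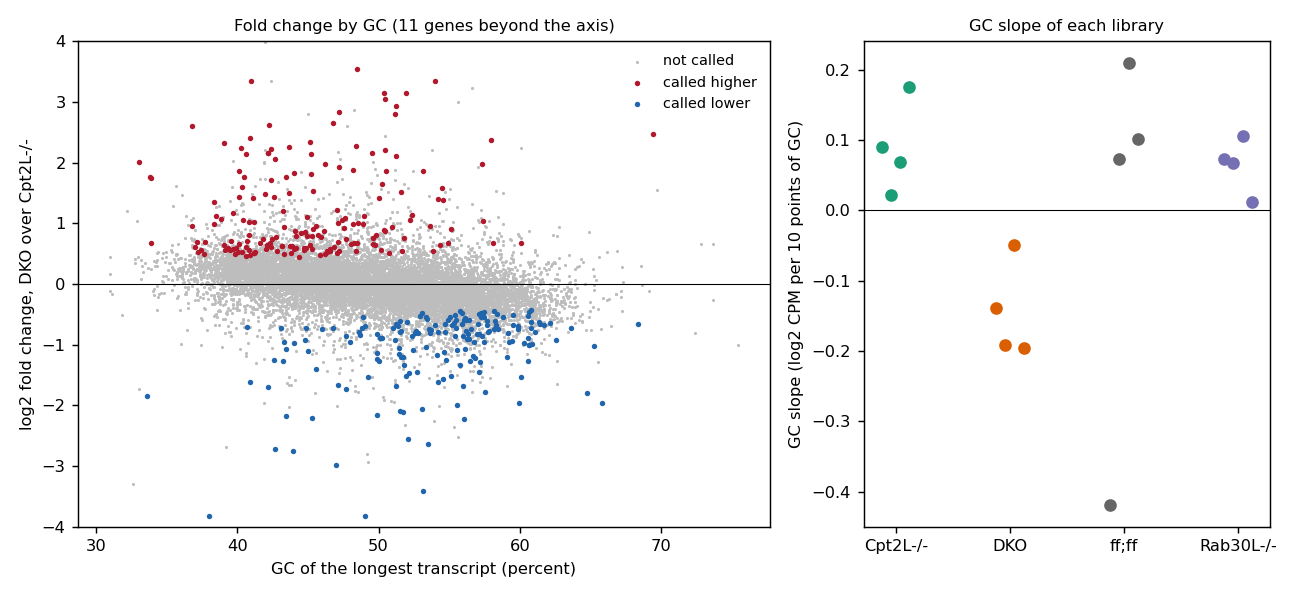
Left, log2 fold change of each tested gene, DKO over Cpt2L-/-, against the GC of its longest transcript in percent, with genes called higher in red and lower in blue and 11 genes beyond the y axis. Right, the slope of log2 CPM on GC in each library of the 4 groups, where the 4 DKO libraries lie between -0.20 and -0.05, the 4 Cpt2L-/- libraries between 0.02 and 0.18, and the first ff;ff library at -0.42.

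The protein-coding genes that stood highest in DKO livers joined a complement protease, detoxification enzymes and a heart protease. C1s2, a copy of the complement C1s protease gene, was at 5.78, 6.75, 2.51 and 5.77 CPM in the DKO libraries and 0, 0, 0.129 and 0 CPM in the Cpt2L-/- libraries. It was thus present in each DKO liver and at or near 0 in each Cpt2L-/- liver (adjusted p = 0.000193). C1s2 was also present with Cpt2 intact, at 10.8 ± 3.11 CPM in ff;ff livers and 9.76 ± 4.79 CPM in Rab30L-/- livers. The Cpt2L-/- group was thus the one that lacked it. Corin, which encodes the serine protease that activates atrial natriuretic peptide, was at 16.3, 16.2, 13.6 and 14.5 CPM against 0.913, 1.16, 1.61 and 1.51 CPM (log2 fold change 3.54, SE 0.20, adjusted p = 2.3e-06, held in 8 of 8). Akr1d1, the 5β-reductase of bile acid and steroid hormone metabolism, was at 34.4, 68, 67.4 and 47.5 CPM against 14.3, 14.1, 7.01 and 5.65 CPM (log2 fold change 2.41, SE 0.34, adjusted p = 0.0113, held in 8 of 8). Lack of overlap between the groups was a condition for choosing these 3 genes, and it held for 356 of the 360 called genes. Each of the 3 kept its call whichever library was left out. With all 24 libraries in one fit, Akr1d1 kept its call while C1s2 and Corin did not. Tpmt, the thiopurine methyltransferase, rose from 19.1 ± 3.99 to 78.9 ± 21.4 CPM (log2 fold change 2.05, SE 0.22, adjusted p = 0.000749). The other genes among the 12 highest were Hamp2, a hepcidin gene, the lipocalin Obp2a, the Rac exchange factor Prex2, the formin Fmn2, Ssbp2, Tes3-ps, Gm47283 and mt-Nd3, with log2 fold changes of 2.01 to 3.14. Of these 8, Tes3-ps and mt-Nd3 were called in all 8 leave-one-out fits and Prex2 in 1, and Prex2 and Obp2a lost their calls with the GC offset. With that offset the log2 fold change was 1.92 for Prex2 and 3.19 for Obp2a. In Prex2 the first pair of DKO libraries stood at 46.3 and 37 CPM and the other pair at 9.06 and 19.6 CPM, against 7.04, 6.61, 4.63 and 7.1 CPM in the Cpt2L-/- libraries.

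The lowest protein-coding genes in DKO livers included a ribosomal protein, a murinoglobulin and 2 signalling genes. Rarres1, a retinoic acid-induced membrane protein, was at 22.5, 15.1, 25.3 and 33.4 CPM in the DKO libraries and 67.5, 128, 131 and 93.3 CPM in the Cpt2L-/- libraries (log2 fold change -2.12, SE 0.27, adjusted p = 0.00508, held in 8 of 8). Mug2, which encodes a murinoglobulin that traps proteases in plasma, was at 9.93, 6.68, 39.9 and 9.24 CPM against 149.6, 112, 122 and 137 CPM (log2 fold change -2.99, SE 0.58, adjusted p = 0.0441, held in 1 of 8). The third DKO library thus held several times as much Mug2 as the other DKO libraries. The call was lost with the GC offset (adjusted p = 0.0576), although the log2 fold change was -3.04 there. Wnt5b, a secreted Wnt ligand, was at 1.75 ± 1.09 CPM against 6.81 ± 2.05 CPM (log2 fold change -1.97, SE 0.38, adjusted p = 0.0245, held in 3 of 8). Nab2, the repressor that Egr factors induce, was at 2.07 ± 0.641 CPM against 6.0 ± 1.17 CPM, and its call held in all 8 leave-one-out fits (log2 fold change -1.54, SE 0.26, adjusted p = 0.0135). The remaining genes among the 12 lowest were Raet1d, a ligand of the NKG2D receptor, Limk1, which phosphorylates cofilin, Nhsl1, Nbea, Mien1, the histone gene H2afj and the carbonyl reductase Cbr3. They stood at -2.75 to -1.57 on the log2 scale. Cbr3 and Mien1 lost their calls with the GC offset.

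Several of the most marked differences lay in genes that share nearly all their sequence with a copy elsewhere. Rpl34, a protein of the large ribosomal subunit, was at 1.79, 3.93, 3.64 and 3.19 CPM in DKO livers and 106, 106, 171 and 133 CPM in Cpt2L-/- livers (log2 fold change -5.35, SE 0.25, adjusted p = 7.82e-07). Its processed pseudogene Rpl34-ps1 moved the opposite way, with 126, 129.6, 134 and 162 CPM in DKO livers and 3.46, 4.69, 3.34 and 5.09 CPM in Cpt2L-/- livers (log2 fold change 5.06, SE 0.17, adjusted p = 1.16e-08). Summed, the gene and its copy gave 128, 134, 137 and 165 CPM in the DKO libraries and 109.5, 110.2, 174 and 138 CPM in the Cpt2L-/- libraries, so that the sums overlapped between the groups while the single genes did not. Over the 354 bases of the Rpl34 coding sequence the copy on chromosome 6 differs at 2, T132C and C318G, with the base of the gene first and positions counted from 1 at its start codon. Bases 112 to 338 of both are shown because a read that lies wholly between the 2 differences matches both, and capitals mark the 2 differences.
Rpl34: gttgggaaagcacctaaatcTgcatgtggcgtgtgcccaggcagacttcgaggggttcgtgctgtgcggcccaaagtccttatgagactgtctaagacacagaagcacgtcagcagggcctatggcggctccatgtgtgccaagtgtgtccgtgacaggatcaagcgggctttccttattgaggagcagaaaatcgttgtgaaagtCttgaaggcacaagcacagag
Rpl34-ps1: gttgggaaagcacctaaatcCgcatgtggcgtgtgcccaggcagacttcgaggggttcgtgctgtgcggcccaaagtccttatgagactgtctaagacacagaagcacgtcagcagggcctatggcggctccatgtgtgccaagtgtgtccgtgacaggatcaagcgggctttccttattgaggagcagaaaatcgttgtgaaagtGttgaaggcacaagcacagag
The mitochondrial gene mt-Nd3, a subunit of complex I, behaved alike. It was at 12.6, 16, 12.2 and 19.7 CPM in DKO livers and 2.35, 4.49, 4.5 and 3.7 CPM in Cpt2L-/- livers (log2 fold change 2.01, SE 0.23, adjusted p = 0.00115). Its nuclear copy Gm28438 on chromosome 1 was at 2.14, 3.47, 2.18 and 3.1 CPM and 11.4, 14.6, 8.42 and 5.15 CPM (log2 fold change -1.85, SE 0.31, adjusted p = 0.0143). The sums of mt-Nd3 and its copy, 14.8, 19.5, 14.4 and 22.8 CPM in DKO livers and 13.8, 19.1, 12.9 and 8.85 CPM in Cpt2L-/- livers, overlapped as well. Over 345 aligned bases the copy differs from mt-Nd3 by T3C alone, shown in capitals in the first 23 bases.
mt-Nd3: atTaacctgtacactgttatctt
Gm28438: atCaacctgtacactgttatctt
Gm13394, a processed pseudogene of the glycolytic enzyme gene Gapdh on chromosome 2, was at 427, 427, 292 and 539 CPM in DKO livers and 1.57, 2.18, 1.74 and 2.76 CPM in Cpt2L-/- livers (log2 fold change 7.67, SE 0.26, adjusted p = 1.16e-08). It was at 308 ± 93.1 CPM in ff;ff livers and 222 ± 86 CPM in Rab30L-/- livers, so that the Cpt2L-/- group was the one near 0. Gapdh itself, with 31.4, 16.7, 26.5 and 16 CPM and 15.4, 21.7, 24.7 and 87.3 CPM, was listed below its own pseudogene in each DKO library and was not called (log2 fold change -0.72, SE 0.57, adjusted p = 0.507). Here the sums did not overlap, at 458, 444, 319 and 555 CPM in DKO livers and 17, 23.9, 26.4 and 90.1 CPM in Cpt2L-/- livers. The 2 sequences differ over 1000 aligned bases at A346C, marked in capitals within bases 326 to 366 of the coding sequence.
Gapdh: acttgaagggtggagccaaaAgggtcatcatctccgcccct
Gm13394: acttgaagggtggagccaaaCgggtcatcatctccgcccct
Of the 41 called pseudogenes, 31 had such a close copy, at least 95% identical over at least 90% of their length to the transcript of a protein-coding gene. Among these 31, 18 were called higher and 13 lower. For 30 the parent gene could be tested, and 2 of the 30 parents were called themselves, Rpl34 and mt-Nd3, while 12 parents had the opposite sign to their copy. How reads that fit both places were counted is not given in the sources used here, so that the levels of all these genes are uncertain. Adh6-ps1, an unprocessed pseudogene of the alcohol dehydrogenase cluster, had 0 counts in all 4 DKO libraries and 4.96, 8.6, 11.4 and 7.16 CPM in the Cpt2L-/- libraries, at least 42.8-fold lower against a floor of 3 counts per library (adjusted p = 0.000184).

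**Figure D3:**
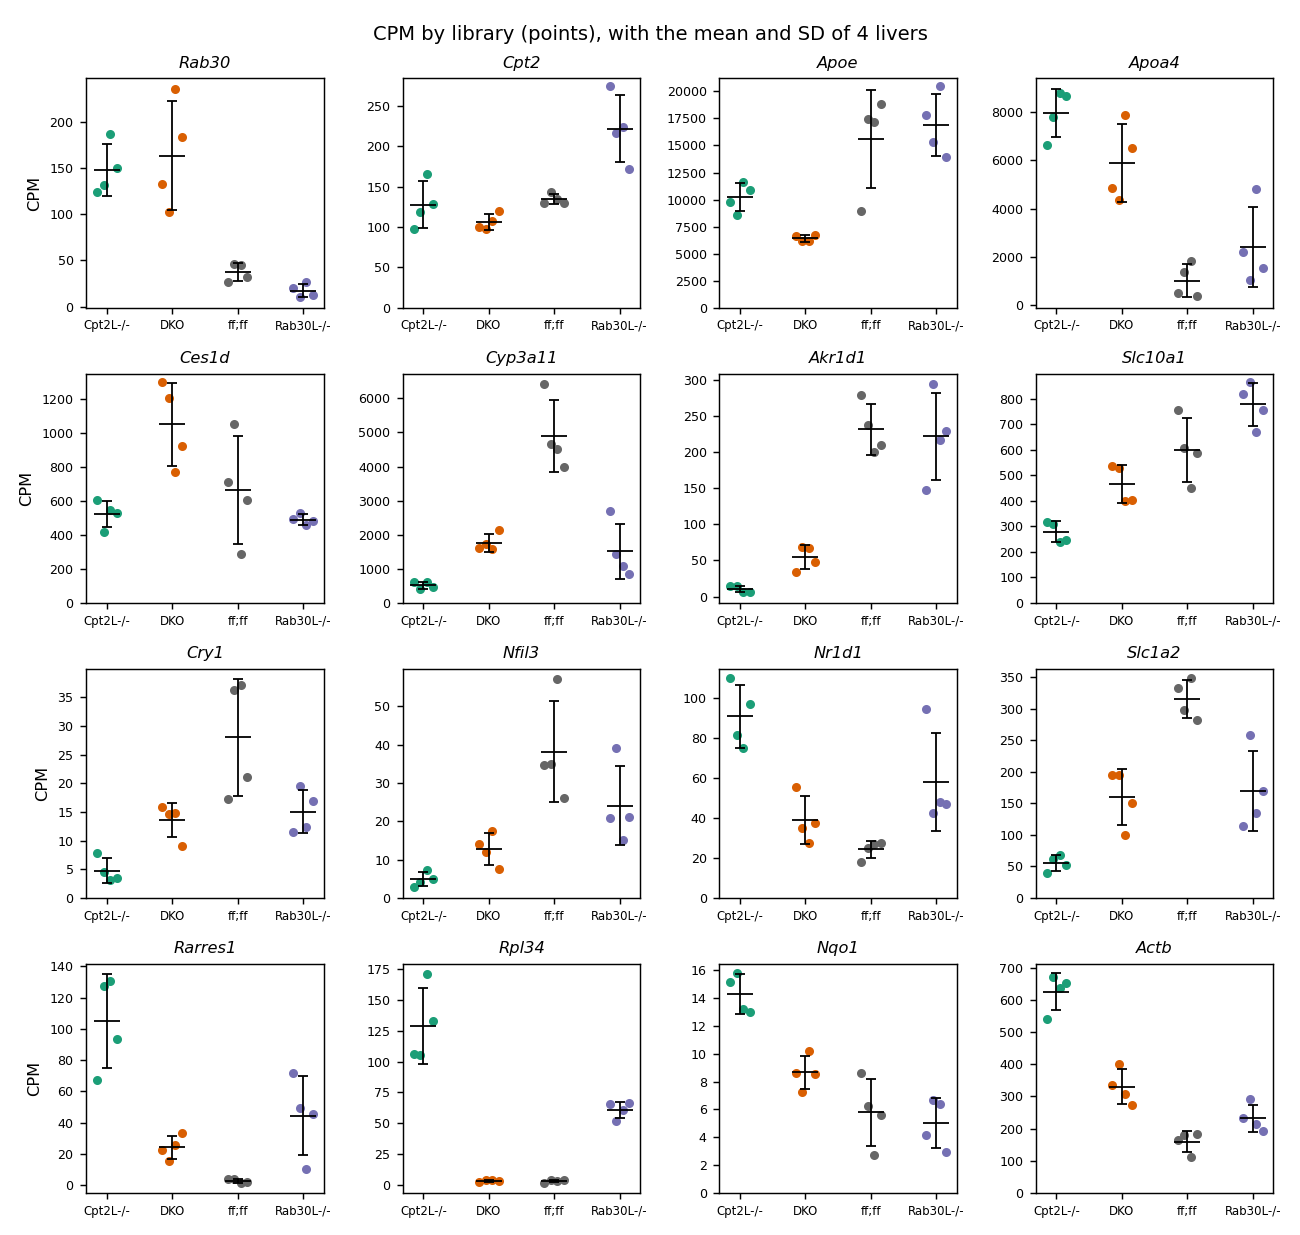
CPM of 16 genes (y axes, linear) in each library of the Cpt2L-/-, DKO, ff;ff and Rab30L-/- groups, with the mean and SD of 4 livers. Apoe, Nqo1 and Actb are lower and Cyp3a11, Akr1d1, Slc10a1, Cry1 and Nfil3 are higher in every DKO library than in every Cpt2L-/- library. The Rab30 and Apoa4 values overlap between these groups, and Rpl34 is near 0 in the DKO and ff;ff libraries.

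Hepatic pathways were read through 33 gene lists. Together the lists held 1266 tested genes, of which 41 were called (25 higher and 16 lower, 3.24%), beside 2.65% of the tested genes in no list. In 9 lists no member was called, and the largest number called in 1 list was 4. Before adjustment over all genes, 1397 genes (10.5%) passed p below 0.05 upwards and 1419 (10.7%) downwards, and the counts of unadjusted members below are set against those shares.

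**Figure D4:**
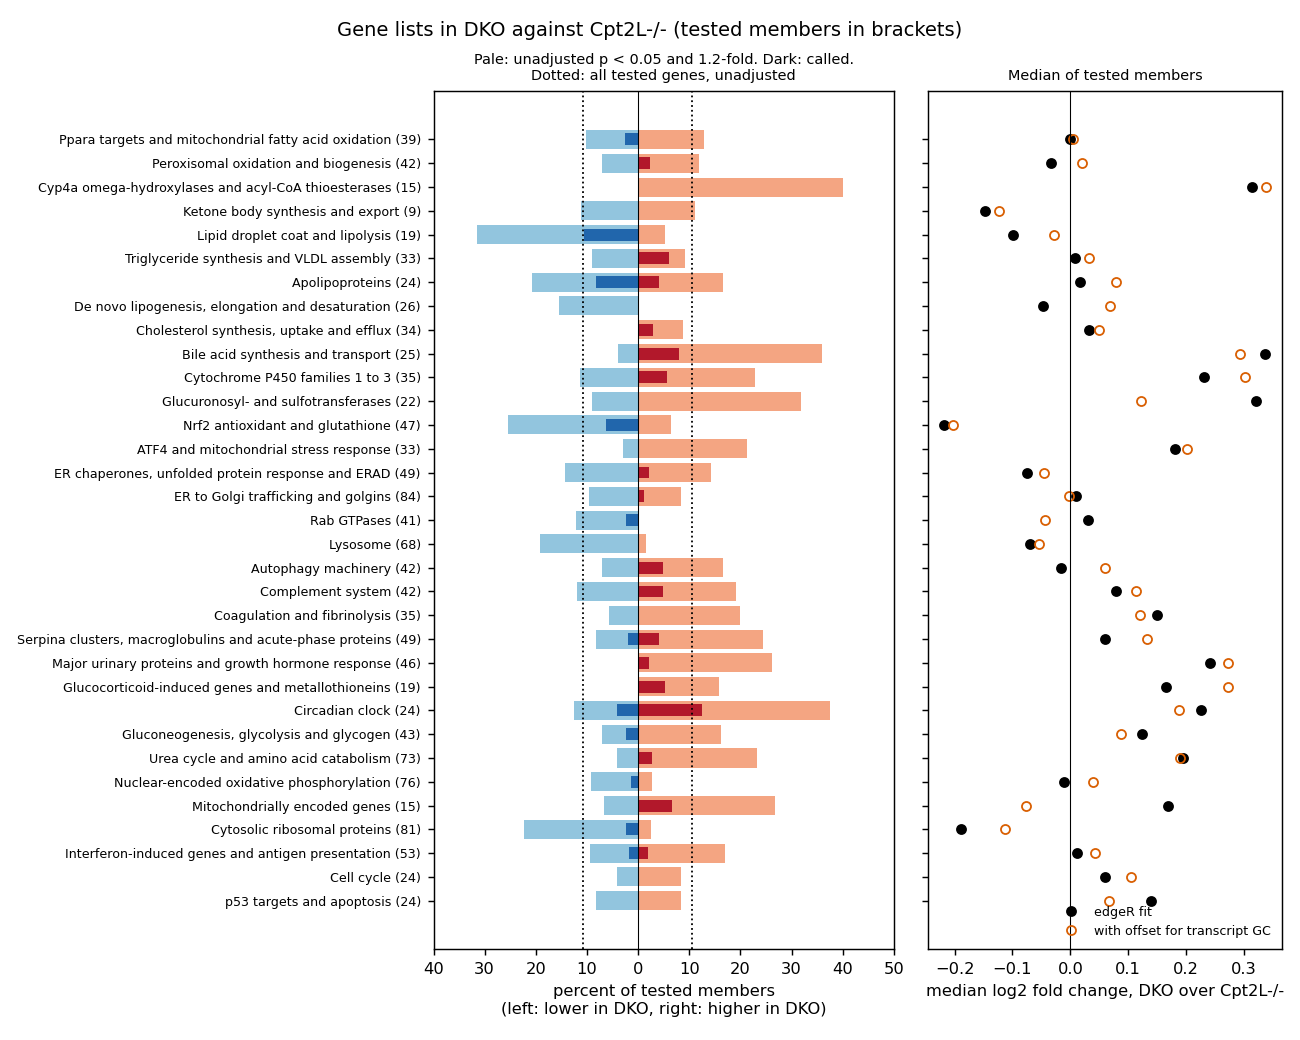
For each of the 33 lists, with its number of tested members in brackets, the percent of members lower (left bars) and higher (right bars) in DKO livers, pale at unadjusted p below 0.05 and dark where called, and on the right the median log2 fold change of the members with and without the GC offset. The circadian clock list has the largest called share. Without the GC offset, the bile acid, Cyp4a and transferase lists have the highest medians and the Nrf2 and ribosomal protein lists the lowest.

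Among apolipoproteins, 3 of 24 tested members were called (12.5%, beside 2.71% of all tested genes), Apoe and Apoc4 lower and Apon higher, with a list median of 0.02. Apoe, the ligand by which remnant lipoproteins enter hepatocytes, was at 6644, 6184, 6146 and 6719 CPM in DKO livers and 9822, 8598, 11622 and 10877 CPM in Cpt2L-/- livers (log2 fold change -0.67, SE 0.13, adjusted p = 0.0256, held in 4 of 8). The groups did not overlap. The call was lost with the GC offset (log2 fold change -0.42, adjusted p = 0.134). Apoc4, its neighbour on chromosome 7, was at 165 ± 15.8 CPM against 319.8 ± 117 CPM (log2 fold change -0.95, SE 0.22, adjusted p = 0.0482, held in 2 of 8). Apon was at 435, 437, 250.3 and 455 CPM against 145, 216, 270.0 and 168 CPM (log2 fold change 0.98, SE 0.23, adjusted p = 0.0471, held in 2 of 8). The third DKO library was the one that overlapped the Cpt2L-/- range for Apon. Neither call held with the GC offset, where the log2 fold change was -0.99 for Apoc4 (adjusted p = 0.0669) and 0.95 for Apon (adjusted p = 0.0741). Apoa4, an apolipoprotein of triglyceride-rich particles that fatty livers make in excess, was at 4859, 4351, 7871 and 6488 CPM in DKO livers and 6624, 7771, 8778 and 8645 CPM in Cpt2L-/- livers, and was not called (log2 fold change -0.43, SE 0.19, adjusted p = 0.214). Both groups stood above the 1017 ± 692 CPM of ff;ff livers, and the ranges of DKO and Cpt2L-/- overlapped in the third DKO library. Apoa1, the main HDL protein, was at 4746 ± 829 CPM against 6989.9 ± 588 CPM and did not overlap, although it missed the threshold (log2 fold change -0.56, SE 0.15, adjusted p = 0.0684). The log2 fold changes of Apob, Apoc3 and Apoa5 were 0.33 (SE 0.16), -0.04 (SE 0.25) and -0.09 (SE 0.12), and none of the 3 was called.

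Of 33 tested genes of triglyceride handling and VLDL 2 were called, both higher, with a list median of 0.01, where 2.71% of all tested genes were called. Ces1d, the hepatic carboxylesterase that mobilises stored triglyceride, was at 1297, 1203, 769 and 925 CPM in DKO livers and 603, 419, 546 and 529 CPM in Cpt2L-/- livers (log2 fold change 1.004, SE 0.18, adjusted p = 0.019, held in 5 of 8). Sar1b, the GTPase that forms the COPII coats large enough for lipoproteins, rose from 161 ± 11 to 234 ± 22.1 CPM (log2 fold change 0.54, SE 0.11, adjusted p = 0.0327, held in 3 of 8), but not with the GC offset (adjusted p = 0.106). Angptl4, a Pparα target that inhibits lipoprotein lipase, and Angptl8 were not called, with log2 fold changes of 0.00 (SE 0.13) and -0.62 (SE 0.24). Sort1, the sorting receptor of the Golgi for secretory and lysosomal cargo, fell from 30.9 ± 1.74 to 18.6 ± 2.34 CPM (log2 fold change -0.72, SE 0.12, adjusted p = 0.0147, held in 6 of 8). Pon1, the paraoxonase carried on HDL, rose from 287 ± 31.7 to 449.7 ± 44.8 CPM (log2 fold change 0.65, SE 0.13, adjusted p = 0.0256, held in 3 of 8). Pon1 lost its call with the GC offset. Angptl4, Angptl8, Sort1 and Pon1 were chosen after their values were seen. Of 19 tested lipid droplet genes, Fitm1, which helps droplets bud from the endoplasmic reticulum, and Cideb, a droplet protein of VLDL lipidation, were lower, with log2 fold changes of -1.27 (SE 0.26, adjusted p = 0.0325) and -0.48 (SE 0.11, adjusted p = 0.0439). Cideb was called in none of the leave-one-out fits, and neither gene was called with the GC offset.

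The share called in the fasting oxidation programme was close to the 2.71% of all tested genes. Of 39 tested Pparα targets and mitochondrial oxidation genes 1 was called (2.56%), with a list median of 0.00, and of 42 peroxisomal genes 1 was called (2.38%), with a median of -0.03. The mitochondrial member was Etfb, a subunit of the flavoprotein that carries electrons from acyl-CoA dehydrogenases, at 13.6, 17.1, 14.2 and 16 CPM against 31.5, 29.9, 67.8 and 37.9 CPM (log2 fold change -1.45, SE 0.24, adjusted p = 0.0158, held in 7 of 8). The peroxisomal member was Nudt19, a CoA hydrolase that rose from 37.9 ± 4.17 to 54.9 ± 2.12 CPM (log2 fold change 0.54, SE 0.11, adjusted p = 0.0327, held in 3 of 8). Pdk4, the kinase that shuts pyruvate dehydrogenase in fasting, was at 825, 760.3, 849 and 366 CPM in DKO livers and 479, 290.1, 334 and 449 CPM in Cpt2L-/- livers. DKO replicate 4 lay within the Cpt2L-/- range and Pdk4 was not called (log2 fold change 0.86, SE 0.26, adjusted p = 0.102). Fgf21, the fasting hormone, varied from 33 to 87.5 CPM within the DKO group alone, with a log2 fold change of 0.06 (SE 0.34). The Cyp4a and thioesterase list had no called gene of 15 and a median of 0.31, with 6 members higher and 0 lower at unadjusted p. Its leading members were Cyp4a10, a fatty acid ω-hydroxylase, at 8117 ± 1282 CPM against 5747 ± 344 CPM (log2 fold change 0.50, adjusted p = 0.0837), and Cyp4a31 (log2 fold change 1.198, adjusted p = 0.0652). Ketone body genes had no call among 9, with the transporter Slc16a7 at a log2 fold change of 0.70 (adjusted p = 0.135).

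Lipid synthesis genes were read in 2 lists. None of 26 lipogenic genes was called, and 0 were higher and 4 lower at unadjusted p. The elongases Elovl5 and Elovl7 led them, with log2 fold changes of -0.36 (adjusted p = 0.133) and -0.88 (adjusted p = 0.0939). Scd1, the stearoyl-CoA desaturase, ranged from 117 to 857 CPM among Cpt2L-/- livers and from 390.2 to 1077 CPM among DKO livers, so that its log2 fold change of 0.35 had an SE of 0.68. Fasn, Acaca and Srebf1 had log2 fold changes of 0.24 (SE 0.29), -0.33 (SE 0.14) and -0.08 (SE 0.15) without a call. In the cholesterol list, Fdft1, the squalene synthase, was the only call among 34 genes, at 80.9, 92, 65.7 and 66.5 CPM against 55, 41.3, 44.8 and 39.5 CPM (log2 fold change 0.76, SE 0.15, adjusted p = 0.0242, held in 3 of 8).

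Bile acid and drug metabolism genes were among the groups with the highest medians. Of 25 tested bile acid genes 2 were called, both higher (8%, beside 2.71% of all tested genes). At unadjusted p 9 were higher and 1 lower, and the median was 0.34 (0.29 with the GC offset). Besides Akr1d1, the called gene was Slc10a1, the sodium-dependent bile acid uptake transporter of hepatocytes, at 536, 529.5, 401 and 406 CPM in DKO livers and 319, 311, 241 and 246 CPM in Cpt2L-/- livers (log2 fold change 0.75, SE 0.15, adjusted p = 0.0308, held in 3 of 8). Both genes were further up in ff;ff livers, at 232 ± 35.2 CPM for Akr1d1 and 600.0 ± 125 CPM for Slc10a1. Among 35 cytochrome P450 genes of families 1 to 3, Cyp3a11, the main drug-metabolising P450 of mouse liver and a target of the xenobiotic receptor Pxr, was at 1604, 1733, 1571 and 2139.6 CPM against 624, 409, 599 and 453 CPM. No DKO value came near the Cpt2L-/- range (log2 fold change 1.76, SE 0.17, adjusted p = 0.000254, held in 8 of 8). Cyp3a59 was called with it, at a log2 fold change of 1.06 (SE 0.23, adjusted p = 0.0413, held in 1 of 8), though not with the GC offset. It shares the gene cluster and close sequence similarity with Cyp3a11. The 22 glucuronosyl- and sulfotransferases had a median of 0.32 without a call, which fell to 0.12 with the GC offset. Their leading members Ugt2a3 and Sult2a8 had log2 fold changes of 0.44 (adjusted p = 0.0748) and 0.76 (adjusted p = 0.0831). Hsd11b1, which regenerates active glucocorticoid in the liver, was the called member of 19 glucocorticoid-linked genes, at 253, 381, 190.3 and 303 CPM against 155, 128, 154 and 153 CPM (log2 fold change 0.94, SE 0.18, adjusted p = 0.0256, held in 3 of 8). It lost its call with the GC offset.

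The circadian clock list had the largest called share of the 33 lists, 4 of 24 tested genes (16.7%, beside 2.71% of all tested genes). The lists were chosen with earlier results of these data known. Nr1d1, which encodes the repressor REV-ERBα, was at 55.6, 35.1, 27.3 and 37.3 CPM in DKO livers and 110.1, 81.3, 74.8 and 97 CPM in Cpt2L-/- livers (log2 fold change -1.22, SE 0.20, adjusted p = 0.0147, held in 6 of 8). Cry1, a repressor of the CLOCK-BMAL1 activator, moved the other way, at 15.9, 14.6, 14.8 and 9.1 CPM against 7.83, 4.56, 3.21 and 3.45 CPM (log2 fold change 1.51, SE 0.28, adjusted p = 0.0237, held in 3 of 8). Nfil3, a repressor at D-box elements, was at 14.2, 12.1, 17.4 and 7.6 CPM against 3.0, 4.11, 7.39 and 5.02 CPM (log2 fold change 1.39, SE 0.30, adjusted p = 0.0382, held in 2 of 8). Each of these 3 genes was free of overlap between the groups, as were 356 of the 360 called genes, and kept its call with the GC offset. Per the study's methods, mice of its fasting experiments were collected at 1 set hour of the afternoon. The RefSeq promoters of the 3 genes, from 250 bases before to 50 after the start in GRCm38.p6, are shown because the genes moved in opposite directions. They were searched on both strands for the E-box CACGTG, the ROR element core AGGTCA and the D-box TTANNTAA, with matches in capitals. Cry1 (chr10:85185005-85185304, minus strand) holds the E-box 60 bases before its start. Nfil3 (chr13:52980990-52981289, minus strand) holds the ROR core on the reverse strand 12 bases before its start. Nr1d1 (chr11:98775328-98775627, minus strand) holds none in this window.
Cry1: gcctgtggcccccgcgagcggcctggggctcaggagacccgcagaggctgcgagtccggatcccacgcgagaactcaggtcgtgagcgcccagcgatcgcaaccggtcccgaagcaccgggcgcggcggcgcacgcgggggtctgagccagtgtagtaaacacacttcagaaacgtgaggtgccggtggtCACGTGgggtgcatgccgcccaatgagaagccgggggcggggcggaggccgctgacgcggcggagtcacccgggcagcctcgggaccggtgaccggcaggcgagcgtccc
Nfil3: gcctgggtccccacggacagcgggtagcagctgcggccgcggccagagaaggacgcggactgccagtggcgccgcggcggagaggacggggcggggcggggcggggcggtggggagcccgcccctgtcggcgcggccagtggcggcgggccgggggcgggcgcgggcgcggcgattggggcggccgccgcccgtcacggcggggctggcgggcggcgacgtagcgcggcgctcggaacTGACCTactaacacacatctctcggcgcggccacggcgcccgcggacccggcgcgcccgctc
Nr1d1: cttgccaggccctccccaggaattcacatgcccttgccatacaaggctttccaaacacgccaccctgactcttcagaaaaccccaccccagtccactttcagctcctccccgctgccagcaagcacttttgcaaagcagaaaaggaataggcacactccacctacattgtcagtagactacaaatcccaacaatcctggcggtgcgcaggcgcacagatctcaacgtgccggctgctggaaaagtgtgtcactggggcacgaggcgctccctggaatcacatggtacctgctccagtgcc
Of 32851 promoters of the same length, 7.15% hold the E-box, 16.3% the ROR core and 6.0% the D-box, so that 1 match in a promoter is common.

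The secretory and degradative pathways were read in 4 lists, to be set against the 2.71% of all tested genes called. Of 84 ER to Golgi trafficking genes and golgins 1 was called (1.19%), Sar1b, and the median was 0.01. Of 41 tested Rab genes 1 was called (2.44%), Rab36, a Golgi-associated Rab, at 10.4, 7.8, 8.53 and 7.18 CPM against 15.5, 22.2, 20.1 and 17.8 CPM (log2 fold change -1.16, SE 0.16, adjusted p = 0.00508, held in 8 of 8). No other Rab passed the test, and Rab2a, a Golgi Rab close in sequence to others of the family, stood at a log2 fold change of -0.02 (SE 0.13). Among 68 lysosome genes none was called, 1 was higher and 13 were lower at unadjusted p, and the median was -0.07. The lysosomal peptidase Dpp7 had a log2 fold change of -0.57 (adjusted p = 0.0882). Lamp2, Lipa and Ctsf, a membrane protein, the acid lipase and a cathepsin of the lysosome, had log2 fold changes of 0.17 (SE 0.13), -0.11 (SE 0.12) and 0.15 (SE 0.11). Syt11, a vesicle protein with few reads, was at -0.48 (SE 0.32). In the autophagy list Bnip3, a mitophagy receptor, and Rb1cc1, the scaffold of the ULK1 complex, were called higher of 42 members (4.76%), at log2 fold changes of 0.67 (SE 0.12, adjusted p = 0.0199) and 0.56 (SE 0.13, adjusted p = 0.0426). Neither held with the GC offset. Becn1 and Map1lc3b were not called, at -0.23 (SE 0.13) and 0.03 (SE 0.11) on the log2 scale.

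Secreted plasma proteins were read in 3 lists, to be set against the 2.71% of all tested genes called. Of 42 complement genes 2 were called, C1s2 and C1rb, both copies of the C1 protease genes, 8 were higher and 5 lower at unadjusted p, and the median was 0.08. C1rb was at 2.21, 3.47, 0.992 and 4.27 CPM in DKO livers and 0.261, 0.257, 0.514 and 0.188 CPM in Cpt2L-/- livers (log2 fold change 3.15, SE 0.50, adjusted p = 0.0107, held in 7 of 8). With Cpt2 intact C1rb was at 7.32 ± 3.26 CPM in ff;ff livers and 5.94 ± 2.56 CPM in Rab30L-/- livers. How the reads of C1s2 and C1rb split from those of C1s1 and C1ra is not given in the sources used here. No coagulation gene of 35 was called, while 7 were higher and 2 lower at unadjusted p, with a median of 0.15. F12, coagulation factor XII, was at 438 ± 54.8 CPM against 609.8 ± 33 CPM (log2 fold change -0.47, adjusted p = 0.0651). Of 49 Serpina, macroglobulin and acute-phase genes 3 were called, the hepcidin genes Hamp and Hamp2 higher and Mug2 lower, while 12 were higher and 4 lower at unadjusted p, with a median of 0.06. Hamp, the iron hormone of the liver, was at 558, 776, 1183 and 899 CPM in DKO livers and 405, 455, 509 and 506 CPM in Cpt2L-/- livers (log2 fold change 0.87, SE 0.20, adjusted p = 0.0426, held in 1 of 8). Hamp2 is its close copy. Of 46 major urinary protein and growth hormone genes 1 was called, Obp2a, while 12 were higher and 0 lower at unadjusted p, with a median of 0.24. Il6ra, Il1rap and Lifr, which encode receptor subunits for IL-6, IL-1 and LIF, were chosen after their values were seen, and no list of cytokine receptors was counted. Il6ra rose from 42.4 ± 9.17 to 78.1 ± 13.9 CPM (log2 fold change 0.89, SE 0.17, adjusted p = 0.0242, held in 4 of 8). Il1rap rose from 61.1 ± 6.22 to 90.5 ± 11.8 CPM (log2 fold change 0.57, SE 0.13, adjusted p = 0.0384, held in 1 of 8). For Lifr the means were 69.2 ± 4.22 and 94.5 ± 9.06 CPM (log2 fold change 0.45, SE 0.11, adjusted p = 0.0485, held in 0 of 8). Of these 3, Il6ra alone kept its call with the GC offset.

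Among antioxidant genes the called members were all lower. Of 47 tested Nrf2 and glutathione genes 3 were called (6.38%, beside 2.71% of all tested genes). At unadjusted p 3 were higher and 12 lower, and the median was -0.22 (-0.20 with the GC offset). Nqo1, the quinone reductase that is the standard Nrf2 target, was at 8.64, 7.27, 10.2 and 8.54 CPM in DKO livers and 15.1, 15.8, 13.2 and 13 CPM in Cpt2L-/- livers (log2 fold change -0.72, SE 0.15, adjusted p = 0.0327, held in 1 of 8). The carbonyl reductase Cbr1 was at 83.8, 64.9, 74.3 and 112 CPM against 146, 163, 149 and 141 CPM (log2 fold change -0.84, SE 0.16, adjusted p = 0.0225, held in 5 of 8). Its neighbour Cbr3 was at 2.57, 1.57, 1.72 and 5.54 CPM against 9.13, 7.96, 11.2 and 9.17 CPM (log2 fold change -1.68, SE 0.35, adjusted p = 0.0343, held in 2 of 8). All 3 were lower in every DKO liver than in every Cpt2L-/- liver, and Cbr3 lost its call with the GC offset. In ff;ff livers the means were 5.81 ± 2.39 CPM for Nqo1, 0.538 ± 0.168 CPM for Cbr3 and 75.7 ± 32.9 CPM for Cbr1. The ATF4 and mitochondrial stress list had no call among 33 and a median of 0.18, with Cebpg and Vldlr at log2 fold changes of 0.33 (adjusted p = 0.152) and 1.33 (adjusted p = 0.151). Dnajb9, an ER co-chaperone of the unfolded protein response, was the call among 49 ER stress genes, at 112, 107, 99.6 and 115 CPM against 78.7, 70.7, 76.4 and 60.3 CPM (log2 fold change 0.60, SE 0.11, adjusted p = 0.0237, held in 4 of 8). It was not called with the GC offset.

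Amino acid catabolism had 2 called genes among 73, both higher (2.74%, where 2.71% of all tested genes were called). In this list 17 were higher and 3 lower at unadjusted p, and the median was 0.20 (0.19 with the GC offset). The called genes were Dbt, a subunit of the branched-chain ketoacid dehydrogenase, which rose from 58.2 ± 9.17 to 91.1 ± 14.4 CPM (log2 fold change 0.65, SE 0.15, adjusted p = 0.0411, held in 2 of 8), and Acmsd. Acmsd, which diverts tryptophan from NAD synthesis, was at 2.71, 4.19, 8.99 and 5.07 CPM in DKO livers and 1.83, 2.38, 1.48 and 1.7 CPM in Cpt2L-/- livers (log2 fold change 1.51, SE 0.34, adjusted p = 0.0417, held in 1 of 8), with 125 ± 111 CPM in ff;ff livers. Neither held with the GC offset. Further metabolic genes chosen after their values were seen were Aspa, the aspartoacylase, with a log2 fold change of 1.13 (SE 0.18, adjusted p = 0.0114) and Car5a. Car5a, the mitochondrial carbonic anhydrase that supplies bicarbonate to the urea cycle, was at 14.6, 11.8, 11 and 17.2 CPM against 4.11, 5.65, 2.76 and 1.38 CPM (log2 fold change 1.98, SE 0.34, adjusted p = 0.0181, held in 7 of 8). Of 43 gluconeogenic, glycolytic and glycogen genes 1 was called, the liver pyruvate kinase Pklr, which fell from 45 ± 8.19 to 26 ± 3.56 CPM (log2 fold change -0.79, SE 0.15, adjusted p = 0.0249, held in 5 of 8). It lost its call with the GC offset.

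Translation and respiratory chain genes were read in 3 lists, to be set against the 2.71% of all tested genes called. Of 81 cytosolic ribosomal protein genes Rpl34 and Rpl28 were called lower, 2 were higher and 18 lower at unadjusted p, and the median was -0.19 (-0.11 with the GC offset). Rpl28 was at 100.5, 101, 132 and 133 CPM in DKO livers and 186, 170.1, 229 and 216 CPM in Cpt2L-/- livers (log2 fold change -0.78, SE 0.14, adjusted p = 0.0216, held in 5 of 8). Nuclear-encoded oxidative phosphorylation genes had 1 call of 76, Ndufv3 of complex I, at a log2 fold change of -0.65 (SE 0.14, adjusted p = 0.0361), which was lost with the GC offset. The 15 mitochondrially encoded genes had 1 call, mt-Nd3. Mitochondrial genes took 6.60% to 7.67% of the counts in DKO libraries and 6.10% to 7.32% in Cpt2L-/- libraries. The cytoskeletal actins, chosen after their values were seen, fell together. Actb was at 336, 401, 309 and 274 CPM in DKO livers and 541, 671, 637 and 653 CPM in Cpt2L-/- livers (log2 fold change -0.92, SE 0.14, adjusted p = 0.00867, held in 8 of 8). Actg1 fell from 419.7 ± 28.2 to 238 ± 39.2 CPM (log2 fold change -0.81, SE 0.14, adjusted p = 0.0147, held in 7 of 8). Cyr61 and Tm4sf1 were chosen in the same way. Cyr61, a matrix protein and target of YAP, fell from 18 ± 5.63 to 6.55 ± 1.74 CPM (log2 fold change -1.45, SE 0.25, adjusted p = 0.0184, held in 6 of 8). Tm4sf1, a membrane protein, fell from 15.4 ± 2.88 to 6.34 ± 2.57 CPM (log2 fold change -1.27, SE 0.26, adjusted p = 0.0325, held in 2 of 8).

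Immune and growth genes were read in 3 lists, to be set against the 2.71% of all tested genes called. Of 53 interferon and antigen presentation genes 2 were called, H2-Q6, a class Ib histocompatibility gene, higher (log2 fold change 0.67, SE 0.14, adjusted p = 0.0329) and Raet1d lower, both from families of near-identical members. Ifi202b, Fcer1g, Fcgr3 and Lxn were chosen after their values were seen. Ifi202b, an interferon-induced DNA-binding protein that the list did not hold, was at 1.57, 2.42, 1.65 and 1.31 CPM in DKO livers and 0 counts in all 4 Cpt2L-/- livers, at least 9.05-fold higher (adjusted p = 0.00178). With Cpt2 intact Ifi202b was present, at 2.29 ± 0.685 CPM in ff;ff livers and 1.24 ± 0.855 CPM in Rab30L-/- livers. Fcer1g and Fcgr3, the Fc receptor γ chain and a low-affinity IgG receptor of macrophages, were lower, at 1.73 ± 0.564 CPM against 4.44 ± 0.721 CPM (log2 fold change -1.34, SE 0.27, adjusted p = 0.0283, held in 3 of 8) for Fcer1g. Fcgr3 was at 1.8 ± 0.823 CPM against 5.27 ± 0.618 CPM (log2 fold change -1.53, SE 0.30, adjusted p = 0.0268, held in 3 of 8), and Fcer1g lost its call with the GC offset. Of the 18 tested Kupffer cell and macrophage markers read below, none was called and 9 had fold changes above 0. At unadjusted p 1 of these markers was higher and 5 were lower, and their median was -0.04. Lxn, a carboxypeptidase inhibitor, was higher, at 3.07, 1.77, 2.51 and 1.6 CPM against 0.717, 0.514, 0.45 and 0.754 CPM (log2 fold change 1.86, SE 0.34, adjusted p = 0.0216, held in 5 of 8). No gene of 24 tested cell cycle genes and none of 24 p53 and apoptosis genes was called. Cdk4 and Ccne2 had log2 fold changes of -0.48 (adjusted p = 0.0924) and 0.77 (adjusted p = 0.178), and Trp53inp1 and Aen 1.02 (adjusted p = 0.0614) and -0.54 (adjusted p = 0.0881).

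Markers of cell types were compared because fewer cells of a type and less RNA per cell cannot be told apart in whole liver. None of 10 hepatocyte markers was called, but their median was 0.31 and their summed level was 69429 to 85415 CPM in DKO livers and 53589 to 63305 CPM in Cpt2L-/- livers, without overlap. Of 14 tested pericentral markers 2 were called (14.3%, beside 2.71% of all tested genes), 1 higher and 1 lower. Slc1a2, a glutamate transporter of pericentral hepatocytes, was at 195, 195, 101 and 151 CPM in DKO livers and 39.5, 62.3, 68.3 and 52.1 CPM in Cpt2L-/- livers (log2 fold change 1.53, SE 0.23, adjusted p = 0.0086, held in 8 of 8). The Wnt target Axin2 fell from 16.4 ± 4.4 to 7.59 ± 2.82 CPM (log2 fold change -1.12, SE 0.26, adjusted p = 0.0475, held in 1 of 8) and it lost its call with the GC offset. Periportal markers had no call among 14, with 13 of 14 fold changes above 0 and a median of 0.31. No marker of Kupffer cells (18 tested), stellate cells (15), endothelium (18), bile duct (8), lymphocytes (4), neutrophils (1) or erythroid cells (5) was called. The summed Kupffer markers were 289 to 383 CPM in DKO livers and 313 to 441 CPM in Cpt2L-/- livers, and the erythroid markers 127 to 414 CPM and 88.6 to 166 CPM. Of 14 markers of fat, pancreas and gut, 7 were at 0 in all 8 libraries, among them Ins2, Lep, Prss2 and Cpa1. The part of these differences in the gene lists was not tested.

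With Cpt2 intact, the genes of this comparison mostly pointed the other way. The comparison of Rab30L-/- with ff;ff livers shares no library with that of DKO with Cpt2L-/- livers, and called 64 of 13367 genes (0.479%), 40 higher (0.299%) and 24 lower (0.18%). Of the 360 called genes, 346 were tested in both, and 258 of them (74.6%) had the opposite sign with Cpt2 intact, against 60.9% of all 12853 genes tested in both. The 13 genes called in both comparisons, 3.61% of the 360 and 20.3% of the 64, all had opposite signs. They were Rpl34, Rpl34-ps1, Rarres1, Rab36, Nhsl1, Obp2a, Adh6-ps1, Rpl21-ps8, Rpl21-ps15, Mme, Zc3h12d, Daglb and Thnsl2. In 11 of these 13 genes the level was lower in the DKO group than in the Cpt2L-/- group and lower in the ff;ff group than in the Rab30L-/- group.

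Adh6-ps1 showed this most plainly. It had 0 counts in all 4 DKO and all 4 ff;ff libraries, 4.96, 8.6, 11.4 and 7.16 CPM in the Cpt2L-/- libraries and 5.51, 7.26, 9.03 and 9.18 CPM in the Rab30L-/- libraries. Rpl34 was at 1.5, 3.9, 2.48 and 3.54 CPM in ff;ff livers, which overlapped the DKO livers, and at 65.1, 51.9, 60.5 and 66.1 CPM in Rab30L-/- livers. Its copy Rpl34-ps1 was at 164, 105, 115 and 146 CPM in ff;ff livers and 65.5, 60.6, 69.2 and 68.8 CPM in Rab30L-/- livers. Mme, the membrane peptidase neprilysin, was at 0.286, 0.393, 0.0661 and 0.0938 CPM in DKO livers and 4.04, 2.57, 3.53 and 1.63 CPM in Cpt2L-/- livers. It was at 0.265, 1.22, 0.355 and 0.129 CPM in ff;ff livers and 9.23, 7.76, 3.31 and 3.63 CPM in Rab30L-/- livers. The DKO and ff;ff libraries of Mme were thus low and the other 8 were not. Daglb, a diacylglycerol lipase, was at means of 17.3 ± 2.64, 37.9 ± 5.11, 10.1 ± 2.29 and 27.3 ± 7.48 CPM in the DKO, Cpt2L-/-, ff;ff and Rab30L-/- groups. Zc3h12d, an immune RNA nuclease, was at 0.435 ± 0.257, 2.62 ± 1.39, 0.643 ± 0.377 and 4.34 ± 1.44 CPM in the same order. Rarres1 was at 2.77 ± 1.28 CPM in ff;ff livers and 44.3 ± 25.3 CPM in Rab30L-/- livers. Obp2a was at 5.96 ± 3.07 and 0.684 ± 0.373 CPM. The interaction of Rab30 loss with Cpt2 loss, fitted over all 16 libraries, was called for 571 of 14063 genes (4.06%), among them 186 of the 360 genes, and this test shares its libraries with the comparison. Rab30 itself had an interaction of 1.25 on the log2 scale (SE 0.41, adjusted p = 0.0951).

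The opposite signs rested in part on the first ff;ff library, which had the steepest GC slope. Without it, 52.9% of all genes and 61.7% of the called genes had opposite signs, and 8 of 8 genes called in both were opposite. With the GC offset in both comparisons, the shares were 57.6% and 78.6%, and 11 of 11 genes called in both were opposite. Without the third DKO library the shares were 59.8% and 71.0%, and of 17 genes called in both 13 were opposite and 4 had the same sign. By DESeq2, 65 of 73 were opposite and 8 had the same sign. Since the ff;ff mice are labelled as littermates of the DKO mice, the difference between litters and the effect of Rab30 loss cannot be told apart in these genes.

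**Figure D5:**
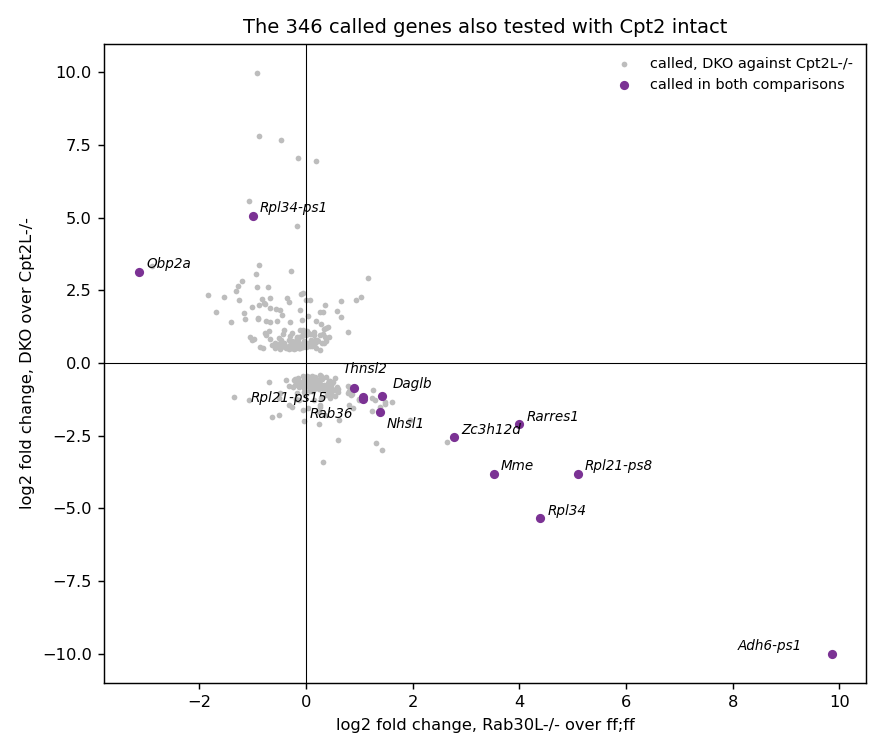
The 346 genes called in DKO against Cpt2L-/- livers that were also tested with Cpt2 intact, by their log2 fold change in Rab30L-/- over ff;ff livers (x axis) and in DKO over Cpt2L-/- livers (y axis). The 13 genes called in both comparisons, in purple, all lie in the quadrants of opposite sign, 11 of them at the lower right.

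The positions of the called genes were read in windows along the genome. Of the 112 tested genes within 10 Mb of Rab30 1 was called (0.893%), Serpinh1, and of the 124 within 10 Mb of Cpt2 2 were (1.61%), Echdc2 among them, so that neither targeted locus was rich in called genes against the 2.71% of all genes. Of 279 windows of 10 Mb with a tested gene, 12 held at least 5 called genes, and together these held 76 called genes of 1166 (6.52%). The largest number was on chromosome 1 from 170 to 180 Mb, where 11 of 79 genes were called (13.9%), among them Fcgr3, Fcer1g, Fmn2 and Ifi202b. Among the 12 windows the largest share was on chromosome 3 from 60 to 70 Mb, where 5 of 30 were called (16.7%), Arhgef26, Rarres1, Mme, B3galnt1 and Lxn, and all 5 kept their call with the GC offset. The 12 windows were chosen for their counts, which fixes a share above that of all genes, and no test is given for them.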

How the data were processed

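RNA from 8 flash-frozen livers, 4 DKO and 4 Cpt2L-/-, was extracted with TRIzol and RNeasy, and Novogene made and sequenced the libraries for the authors. The counts that the authors deposited are whole numbers of reads per gene, not normalized, and were the input of every test. They also deposited FPKM values and a table of normalized counts, neither used here, and 5 tables of their own fold changes and p-values, which were not read. Their processing notes name HISAT2, DESeq2, GRCm38 and mm10, and the study's methods give DESeq2 as the tool that normalized raw counts across genotypes. Whether strand was used is not given in the sources used here, so that overlapping and antisense genes are uncertain.

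Groups followed the genotype labels. Genes were kept by filterByExpr (13306 of 54532), libraries were scaled by TMM, and glmQLFit with robust estimation and glmQLFTest were run in edgeR 4.0.16 under R 4.3.3 on the 8 libraries, with Benjamini-Hochberg adjustment over all tested genes. The SE is the size of the log2 fold change divided by the square root of F. The comparison with Cpt2 intact used its own 8 libraries and the interaction 16. Alternatives were DESeq2 1.42.0, limma-voom 3.58.1 with sample quality weights, DESeq2 size factors, other filters and thresholds, a fit over all 24 libraries, and each library left out. The GC offset was added after the data were seen: each library's log2 counts were smoothed on the GC of the longest GENCODE vM21 transcript by lowess with a span of 0.3. A gene at 0 in every library of a group was given a lower bound against 3 counts per library, which covers counting error only.

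The members, the 33 lists and the 11 marker lists were chosen with earlier results of these data known. Named genes were Rab30, Cpt2, the 12 highest and 12 lowest called protein-coding genes without overlap and with a mean of at least 3 CPM in the higher group, up to 4 called members of each list or, with none called, the 2 with the smallest p, called markers, and genes the study names. Some genes that this rule takes in are not reported here. Genes named outside this rule are marked in the text, or stand among the pseudogenes and the genes called with Cpt2 intact, and were chosen after their values were seen. Close copies of pseudogenes were found with blastn 2.17.0. The tests were also run on simulated counts with known changes, where a planted GC trend raised the share of false calls and the GC offset lowered it again. Pandas 2.3.3 and numpy 2.4.6 under Python 3.11.15 made the other tables.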

Additional observations from a re-analysis of the deposited data

Results flagged for a closer look

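For 53 of the 120 named genes the change from Cpt2L-/- to DKO livers differed from the change from ff;ff to Rab30L-/- livers, by edgeR's test of the interaction over 16 libraries (adjusted p below 0.05 and at least 1.2-fold). Over all genes the test called 571 of 14063 (4.06%). Most of the named genes were chosen because they were called in DKO against Cpt2L-/- livers, which is one side of this interaction and shares its libraries, so that their higher share is not independent evidence. The values below are that interaction on the log2 scale, the change in Cpt2-deficient livers less the change with Cpt2 intact. Either of these changes can give it. Pdk4, Cpt2, Cdk4 and Trp53inp1 were not called in DKO against Cpt2L-/- livers. For Pdk4 the log2 fold change was 0.86 in that comparison and -2.16 with Cpt2 intact. Among lipid export and lipoprotein genes it was 1.44 for Ces1d, 0.89 for Sar1b, -1.47 for Apoc4 and -0.64 for Cideb. Among bile acid, detoxification and metabolic genes it was 2.46 for Akr1d1, 3.45 for Cyp3a11, 2.84 for Tpmt, 2.43 for Slc1a2, 1.18 for Aspa, 1.62 for Car5a, 3.01 for Pdk4, -1.24 for Pklr, 0.89 for Nudt19 and -0.99 for Cpt2. Of the clock genes, it was 2.41 for Cry1, 2.05 for Nfil3 and -2.47 for Nr1d1. In the secretory and degradative lists it was -2.24 for Rab36, 0.85 for Bnip3 and 0.87 for Rb1cc1. Cytoskeletal, signalling and growth genes gave -1.46 for Actb, -0.77 for Actg1, -1.52 for Axin2, -2.26 for Tm4sf1, -2.43 for Nab2, -2.90 for Nbea, -3.06 for Nhsl1, -0.85 for Cdk4 and 2.59 for Trp53inp1. Complement and immune genes gave 7.17 for C1s2, 3.44 for C1rb, 8.65 for Ifi202b, -2.82 for Fcer1g, -2.91 for Fcgr3, -4.07 for Raet1d, 0.84 for Il1rap and -5.34 for Zc3h12d. Further genes gave 6.56 for Corin, 3.02 for Fmn2, 3.79 for Gm47283, 6.28 for Obp2a, 3.55 for Tes3-ps, -6.11 for Rarres1, -7.34 for Mme, -2.56 for Daglb and -1.75 for Thnsl2. Corin was at 0.354, 8.23, 0.426 and 0.193 CPM in the ff;ff libraries and 0.272 ± 0.0924 CPM in Rab30L-/- livers. The second ff;ff library thus stood apart and adds to its interaction. Genes with pseudogene copies, and pseudogenes, gave -9.74 for Rpl34, 6.06 for Rpl34-ps1, 2.78 for mt-Nd3, 8.14 for Gm13394, -19.87 for Adh6-ps1, -8.89 for Rpl21-ps8 and -2.29 for Rpl21-ps15. The fitted values of C1s2, Ifi202b and Adh6-ps1 depend on the prior count, since a group is at or near 0 counts. The ff;ff mice are labelled littermates of the DKO mice, so that litter and genotype cannot be told apart in any of these values.

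In 13 of 240 groups of 4 libraries, 2 for each named gene, 1 library stood apart from the other 3 by Dixon's test, which flags about 5% of groups by chance. In the DKO group it was the third library for Angptl4 (341 CPM), Apon (250.3 CPM), Lamp2 (510.1 CPM), Mug2 (39.9 CPM), Rpl21-ps15 (10.4 CPM) and Wnt5b (3.37 CPM), and the second for Lifr (108 CPM), Scd1 (1077 CPM) and Syt11 (1.83 CPM). In the Cpt2L-/- group it was the fourth library for Gapdh (87.3 CPM) and Tes3-ps (0.44 CPM), the third for C1s2 (0.129 CPM) and the second for Hsd11b1 (128 CPM). Without the third DKO library Mug2 had a log2 fold change of -3.92, and without the fourth Cpt2L-/- library Gapdh had 0.14.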

How the results depend on the processing

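The number of genes called depended on the processing, while the directions of the called genes named here did not turn in any setting run. The main count was 360 genes (183 higher and 177 lower in DKO livers). It was 2816 without adjustment of p (1397 and 1419), 1534 by limma-voom with quality weights (731 and 803), 1032 by DESeq2 (532 and 500), 705 without a filter on low counts (352 and 353), 114 with all 24 libraries in one fit (68 and 46) and 170 with the GC offset (98 and 72). With 1 library left out it ranged from 57 to 445 genes, with 32 to 242 higher and 25 to 203 lower. It moved by over 1.5 times without DKO replicate 1 (188) or 2 (98) and without Cpt2L-/- replicate 1 (229), 2 (117), 3 (143) or 4 (57). The interaction count of 571 became 1080 by DESeq2 and 340 with the GC offset, and ranged from 300 to 679 with 1 library left out. The count of 64 with Cpt2 intact became 240 without a filter and 298 by DESeq2, and ranged from 23 to 93. The cause of these moves was not tested. Over the 120 named genes and all settings, 1469 values kept their direction and their side of the threshold, 346 lost the call, 62 gained one and 29 changed sign, all of them in genes not called. The sign of Angptl4 turned with DESeq2 size factors (0.00261), DESeq2 (0.00258) and the GC offset (0.0502). With the GC offset the sign also turned for Apoa5 (0.11), Apoc3 (0.15), Srebf1 (0.14), Lamp2 (-0.0537) and Rab30 (-0.0796), and with limma-voom for Fasn (-0.0509), Fgf21 (-0.26) and Rab30 (-0.0778). With 1 library left out, the ranges that crossed 0 were -0.13 to 0.0501 for Angptl4, -0.19 to 0.18 for Apoc3, -0.19 to 0.40 for Fasn, -0.18 to 0.26 for Fgf21, -0.99 to 0.14 for Gapdh, -0.0315 to 0.0886 for Map1lc3b, -0.14 to 0.0449 for Rab2a, -0.0871 to 0.32 for Rab30 and -0.12 to 0.83 for Scd1. No paired analysis was possible because the labels give each library an animal number and the groups share none. Counts of 1 liver per library limit what low genes can show, and a gene without a call is not shown to be equal.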
